A study of Mus musculus with 13 samples.

Results

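Transcription factors of the C/EBP family activate inflammatory and acute-phase genes in macrophages and liver, and the question addressed here is which of these genes have C/EBPα nearby in stem and progenitor cells. A list of 10 such genes was examined: Ptgs2, Pla2g4a, C3, Il6, Il1b, Tnf, Ccl3, Nos2, Saa3 and Orm1. A ChIP-seq region was assigned to a gene when its centre lay within 100 kb of the annotated transcription start site (TSS), which gave 27 of 17899 regions. All 10 genes had at least 1 region, as did 79.2% of all protein-coding genes. No region fell to more than 1 of the 10. The library was made with an antibody against C/EBPα from LSK cells, the Lin- Sca-1+ Kit+ fraction of mouse bone marrow that contains the hematopoietic stem cells. The authors compared it with an IgG mock library in the program MACS and deposited each region with a score, 10 times the negative log10 of its p-value. The scores start at 50, which is a p-value of 1e-05.

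The mice behind the library had the strain C57BL/6 with floxed cebpa and Mx1Cre. Histone libraries of wild-type and of knock-out label carry that same strain, and this library has no genotype label, so its genotype could not be settled from the labels. A further C/EBPα library from LSK cells, not analysed here, is titled a replicate and labelled wild type with a floxed strain that lacks Mx1Cre, and the study's methods describe the ChIP-seq libraries as biological replicates. Mx1Cre is switched on by interferon after injection of pIpC, a double-stranded RNA mimic that is itself an inflammatory stimulus. According to its methods, the study injected young adult mice and analysed them weeks later. The labels of this library give neither injection nor age. No RNA was measured in this library, so the LSK identity could not be checked against marker genes. The regions are candidates that had not yet passed the authors' later filters, and the study kept only a small part of its candidates. According to its methods, a kept region needed a minimum height, presence in both C/EBPα samples and no high IgG level, and all were inspected by eye. Which of the regions described here were kept is not given here. The deposited list holds no read numbers. The study reports mapped reads per library, which were not used here. With 1 library there is no replicate check and no test, and a gene without a region is a gene for which none was called.

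C/EBP proteins bind DNA as dimers of basic leucine zipper subunits, and each subunit contacts one side of a short palindrome. In macrophages and hepatocytes C/EBPβ and C/EBPδ are induced by cytokines and act on these promoters together with NF-kB, STAT3 and AP-1, while C/EBPα is present before the stimulus and drives the granulocyte and monocyte programme in marrow. The listed genes act at successive steps of the inflammatory response: Pla2g4a and Ptgs2 make lipid mediators, Il6, Il1b and Tnf are cytokines, Ccl3 attracts leukocytes, Nos2 makes nitric oxide, and C3, Saa3 and Orm1 are plasma proteins of the acute phase.

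Most of these promoters carried a C/EBP binding sequence. Most of those that did had no region within 10 kb, and neither did 18643 of all 22367 protein-coding genes. The promoters of the 10 genes were searched, from 250 bases before to 50 after the TSS in mm9, for the C/EBP word TTGCNNAA or TTACNNAA on either strand. It was present in 7 of the 10, against 17.2% of the promoters of all 22367 protein-coding genes. The 10 genes were listed as known C/EBP targets, so this share is not independent of how they were chosen. The stretches are shown in the direction of the gene with the word in capitals. A word on the other strand appears as its complement, for example TTGTGCAA.
Ptgs2, chr1:151947081-151947110, plus strand: cgctgcggttcTTGCGCAActcactgaagc
C3, chr17:57367586-57367615, minus strand: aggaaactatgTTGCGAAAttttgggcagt
Il6, chr5:30339515-30339544, plus strand: acgacgtcacaTTGTGCAAtcttaataagg
Ccl3, chr11:83462962-83462991, minus strand: tggaccctgggTTGTGTAAtatccatcatg
Nos2, chr11:78734254-78734283, plus strand: tttgggaacagTTATGCAAaatagctctgc
Saa3, chr7:53971127-53971156, minus strand: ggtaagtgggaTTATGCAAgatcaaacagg
Orm1, chr4:63005462-63005491, plus strand: gagggaacattTTGCGCAAgacatttccca

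Only the promoters of Ptgs2 and C3 also lay in a region. The other 5 word-bearing promoters, those of Il6, Ccl3, Nos2, Saa3 and Orm1, had no region within 10 kb. Such a region was present for 16.6% of all protein-coding genes. Orm1 carries the perfect palindrome TTGCGCAA, as Ptgs2 does, and its nearest region was 28514 bp away. Pla2g4a, Il1b and Tnf have no such word in the promoter, and of these Pla2g4a and Il1b had a region within 10 kb. A matching word is a description of the sequence and not a measured site. Over all protein-coding genes, 27.4% of the 678 promoters with a region within 1 kb of the TSS held the word, and 16.8% of the 21689 others.

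**Figure D1:**
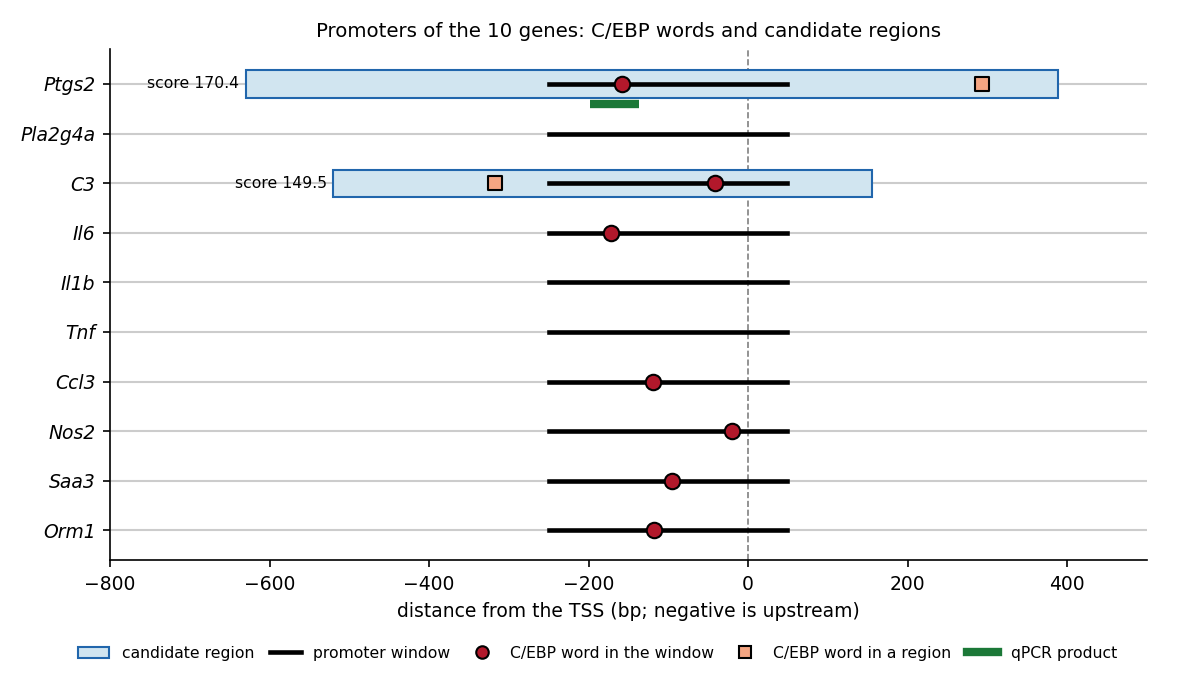
Promoters of the 10 genes aligned at the TSS, with distance in bp on the horizontal axis. Black lines are the searched promoter windows, red circles the C/EBP words in them, orange squares further words inside a region, blue boxes the regions with their scores, and the green bar the qPCR product of Ptgs2; 7 windows hold a word and 2 of them lie in a region.

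A region within 100 kb says little by itself, because 79.2% of all protein-coding genes had one, and the median was 2 regions for the 10 genes and 2 for all genes. The closer rules separated the genes. Within 10 kb of the TSS a region was found for Ptgs2, Pla2g4a, C3 and Il1b, 4 of the 10 genes, against 16.6% of all genes. Within 1 kb there were 2 of 10, Ptgs2 and C3, against 3.03%. Regions with a score of at least 100 lay within 100 kb of 3 of the 10 genes, Ptgs2, C3 and Il1b, a share close to the 27.7% of all genes. For a score of at least 200 the count was 2 of 10, again Ptgs2 and C3, against 5.38%. The other 7 genes had 15 regions, none with a score above 97.12.

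**Figure D2:**
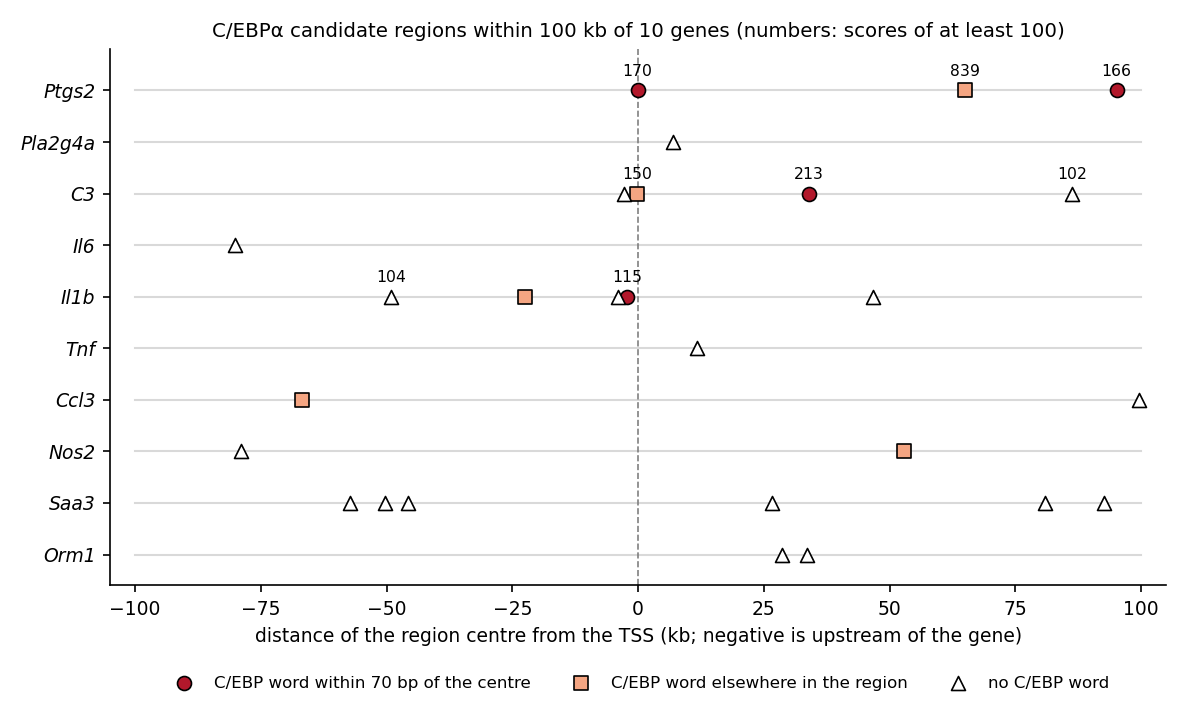
The 27 regions by gene, with the distance of the region centre from the TSS in kb on the horizontal axis and 1 lane per gene. Colour and shape give the place of the C/EBP word and the numbers are scores of at least 100, which occur only in the lanes of Ptgs2, C3 and Il1b.

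The prostaglandin enzymes are described first. Ptgs2 encodes cyclooxygenase 2, the inducible enzyme that turns arachidonic acid into prostaglandin H2. The gene starts at position 151947254 on the plus strand of chromosome 1, and no other protein-coding TSS lies within 100 kb. It had 3 regions, all with scores above 100. The region over the promoter spans chr1:151946624-151947642, is 1019 bp wide and scored 170.41, which is rank 531 in the whole list. Its centre lies 121 bp upstream of the TSS, outside the transcribed gene. The 250 bases before the TSS, on the plus strand at chr1:151947004-151947253, are shown because they hold the word and the ChIP-qPCR product of the study.
Ptgs2 promoter: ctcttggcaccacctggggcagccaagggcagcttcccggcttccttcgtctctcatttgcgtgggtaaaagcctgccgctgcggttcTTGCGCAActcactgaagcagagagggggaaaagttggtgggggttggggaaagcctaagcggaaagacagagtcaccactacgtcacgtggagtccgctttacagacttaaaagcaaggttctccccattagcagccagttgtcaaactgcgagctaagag

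The capitals mark TTGCGCAA, 34 bp from the centre of the region and at -162 to -155 from the TSS, with the TSS base counted as 0. Of all 17899 regions 94 had this exact palindrome within 70 bp of the centre, with a median score of 161.775, and the Ptgs2 promoter was the only one of them among the 27. The RUNX word searched was TGNGGTN with T or C at each N, and its form TGCGGTT ends 1 base before the palindrome. RUNX1 is a core regulator of hematopoietic stem cells. The same region has a further word, TTGCTAAA, at 290 to 297 downstream of the TSS. The primers ctcatttgcgtgggtaaaagc and cctctctgcttcagtgagttg amplify 62 bp at chr1:151947056-151947117, a product that contains TTGCGCAA. The qPCR values were not analysed here.

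The strongest of the 27 regions was a different one in the Ptgs2 window. It spans chr1:152011888-152012733, is 846 bp wide and scored 839.48, rank 34 of 17899, with its centre 65057 bp downstream of the Ptgs2 TSS and beyond the end of the gene at 151955140. Among the 8017 regions whose nearest protein-coding TSS was more than 50 kb away it ranked 4 by score. It is far from protein-coding genes but not from every annotated transcript. The lincRNA Gm17311, on the minus strand from 152006173 to 152012078, starts 233 bp from the centre. Both C/EBP words of the region lie just upstream of that start, TTACACAA by 34 bases and TTGCACAA by 111 bases, and 192 and 115 bp from the centre. They are shown on the plus strand at chr1:152012092-152012216, where they read as their complements.
Ptgs2 65 kb downstream: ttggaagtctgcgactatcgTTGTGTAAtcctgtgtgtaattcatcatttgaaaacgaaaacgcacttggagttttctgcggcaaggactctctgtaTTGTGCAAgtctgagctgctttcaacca

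The remaining Ptgs2 region, chr1:152042043-152042678, is 636 bp wide with a score of 166.28, and its centre is 95107 bp downstream. It holds TTGCTGAA and 2 copies of TTGCAGAA, one of them 38 bp from the centre. Of its 32-base stretches 52.1% occur at more than 1 position of mm9, where the other 2 Ptgs2 regions had none. Reads from such stretches cannot be placed with certainty.

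Pla2g4a, the neighbouring gene on chromosome 1, encodes the cytosolic phospholipase A2 that releases arachidonic acid, the substrate of cyclooxygenase. It starts at 151808420 on the minus strand and also has no other protein-coding TSS within 100 kb. Its single region, chr1:151801339-151801743, was 405 bp wide and scored 67.27, below the median of 73.75 of all regions. The centre lies in an intron, 6879 bp downstream of the TSS. It had no C/EBP word but held AGGAAGC within 70 bp of the centre, a form of the ETS word NGGAAGN, which was searched with A or C as its first and C or T as its last base.

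C3, the central component of complement, is an acute-phase protein of liver and is also made by macrophages. It starts at 57367559 on the minus strand of chromosome 17. The promoter region spans chr17:57367404-57368079, is 676 bp wide and scored 149.53, rank 765, with its centre 183 bp upstream of the TSS. Among the 638 regions with a protein-coding TSS within 1 kb it ranked 142 by score, and the Ptgs2 promoter region 118. The 300 bases upstream of the TSS, minus strand at chr17:57367560-57367859, carry 1 word close to the start of transcription.
C3 promoter: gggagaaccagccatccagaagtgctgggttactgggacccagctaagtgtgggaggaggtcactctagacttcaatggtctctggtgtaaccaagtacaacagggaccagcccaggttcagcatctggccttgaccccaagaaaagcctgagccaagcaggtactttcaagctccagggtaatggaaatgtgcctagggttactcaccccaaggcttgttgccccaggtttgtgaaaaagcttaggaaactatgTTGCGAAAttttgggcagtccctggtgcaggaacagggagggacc

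The word TTGCGAAA lies at -45 to -38, and a further one in the region, TTGCTAAA, at -321 to -314. They are 138 and 131 bp from the centre of the region, so neither is within 70 bp. A weaker region upstream, chr17:57369911-57370793, was 883 bp wide and scored 93.93 with its centre 2793 bp from the TSS and had no word.

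The highest score in the C3 window belonged to a neighbouring gene. The region chr17:57333133-57334078, 946 bp wide, scored 213.1, rank 333, and is centred in the 5' UTR of Tnfsf14, which encodes the TNF family ligand LIGHT, 6 bp from its TSS and 33953 bp downstream of that of C3. Its word TTGCCCAA is 29 bp from the centre, in ggaaaccacaaTTGCCCAAcacgctcgggc, plus strand at chr17:57333559-57333588. A RUNX word, TGTGGTT on the other strand, again lies 1 base away from it. The region chr17:57281135-57281520, 386 bp wide, scored 102.44 at 86231 bp downstream. It is nearer to Cd70, another TNF family ligand, at 7872 bp, and held no C/EBP word but the AP-1 word TGAGTCA (AP-1 was searched as TGANTCA).

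Among the listed cytokine genes Il6, Il1b and Tnf only Il1b had regions within 10 kb. Il1b encodes interleukin 1β, made by activated monocytes and macrophages as a precursor, and starts at 129196875 on the minus strand of chromosome 2. Of its 5 regions the highest, chr2:129198622-129199475, was 854 bp wide and scored 114.86, rank 2121, with the centre 2174 bp upstream. It holds TTGCACAA 55 bp from its centre, in gagcaggcaagTTGCACAAcatgtatatca, plus strand at chr2:129199093-129199122, and TTACAGAA 264 bp from it. The noncoding gene Gm14047 runs through it, and 1 of its transcripts starts 184 bp from the centre.

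Next to it, chr2:129200523-129201063 was 541 bp wide and scored 63.52 at 3918 bp upstream, without a word. A region 49174 bp upstream, chr2:129245850-129246247, was 398 bp wide, scored 104.42 and had no word, and 37.9% of its 32-base stretches were repeated in the genome. The remaining pair scored 91.23 and 59.25. The former lies nearer to Il1a, the gene of interleukin 1α, at 14492 bp.

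Il6 and Tnf looked different. Il6 encodes interleukin 6, the main inducer of the acute-phase response in liver, and starts at 30339701 on the plus strand of chromosome 5. Its single region, chr5:30259324-30259910, was 587 bp wide, scored 61.34 and lay 80084 bp upstream, with none of the words searched within 70 bp of its centre. The Il6 promoter itself has the C/EBP word at -175 to -168 and an NF-kB word at -91 to -82, the only NF-kB word in the 10 promoters, where 0.429% of all promoters had one. Tnf, the gene of tumour necrosis factor, starts at 35338952 on the minus strand of chromosome 17 in a gene-dense stretch with 19 other protein-coding TSSs within 100 kb. Its single region, chr17:35326969-35327493, was 525 bp wide and scored 71.83 at 11721 bp downstream, nearer to Lst1 at 1847 bp. It held the ETS word AGGAAGT and no C/EBP word.

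Ccl3, the chemokine MIP-1α, starts at 83462857 on the minus strand of chromosome 11 and is flanked by other chemokine genes. Its higher region, chr11:83363006-83363504, was 499 bp wide, scored 62.69 and sat at the very edge of the window at 99602 bp, with Ccl5 as nearest gene. The other scored 53.29 and is nearest to Expi. Nos2, the inducible nitric oxide synthase of activated macrophages, starts at 78734289 on the plus strand of the same chromosome. Its higher region, chr11:78654925-78655554, was 630 bp wide and scored 92.02 in the 3' UTR of 1810012P15Rik, 79049 bp upstream. The other, with a score of 57.67 in an intron of Lgals9, contains TTGCACAA 123 bp from the centre.

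The acute-phase genes Saa3 and Orm1 had regions only at a distance. Saa3 encodes a serum amyloid A protein that macrophages and fat cells make as well as liver, and starts at 53971046 on the minus strand of chromosome 7. It had 6 regions, more than 97.9% of all genes, but the nearest was 26578 bp away and the scores ran from 62.35 to 97.12. None of the 6 contained a C/EBP word, and all were nearer to Sergef, Tph1 or Saa2. The highest, chr7:54021087-54021568, was 482 bp wide and lies in an intron of Hps5, 50282 bp upstream. Orm1, the α1-acid glycoprotein of liver, starts at 63005594 on the plus strand of chromosome 4. Its 2 regions scored 52.25 and 73.78, the latter at chr4:63038868-63039393 with a width of 526 bp and 33537 bp downstream. Both lie in introns of Akna, nearest to Orm2, and have no C/EBP word.

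Several of these genes sit among paralogs, and reads from repeated sequence are hard to place, so repeats were counted. In the 1 kb to both sides of the TSS the share of 32-base stretches found more than once in mm9 was 0.0% for Ptgs2, Ccl3 and Saa3, 3.05% for Il6, 1.42% for Tnf and 3.81% for Nos2. For Orm1, which has near copies in Orm2 and Orm3, it was 9.7%, and for Il1b 12.8%, the highest of the 10. In each of these 10 flanks most of the sequence occurs once, whether or not a region was called there. Of the 27 regions 17 had no repeated stretch and 3 had more than 30%, the Ptgs2 and Il1b regions given above and the Saa3 region at 92523 bp, with 36.4%. In the only Il6 region the share was 20.1%.

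As a set, the 27 regions were ordinary in size. Their median width was 587 bp, the same as that of all regions, with a range from 386 to 1019 bp, and their median score was 72.43 against 73.75. Scores of at least 100 were reached by 8 of the 27, against 20.3% of all regions. The centre was upstream of the TSS of the gene in 13 and downstream of it in 14, either inside the gene or beyond its end. It was intergenic with respect to protein-coding genes in 15, in introns in 8, in 3' UTRs in 2, and in a 5' UTR and a coding exon in 1 each. For 16 of the 27 the nearest protein-coding TSS was that of another gene.

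**Figure D3:**
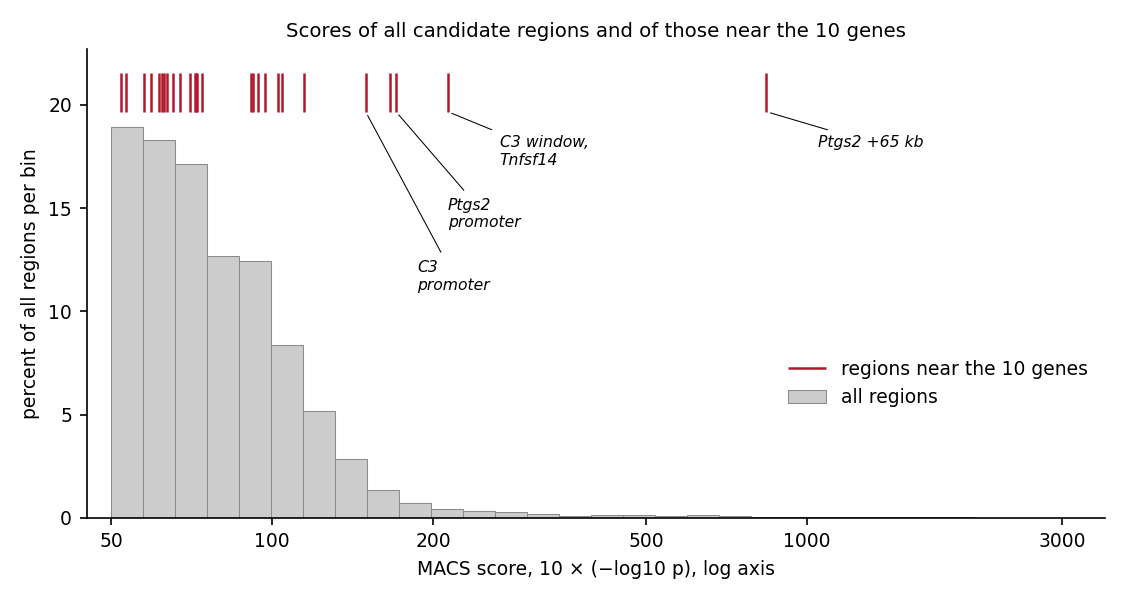
Scores of all 17899 regions as a histogram, with the MACS score on a log axis and the percent of regions per bin on the vertical axis. Red ticks are the 27 regions near the 10 genes, of which 19 score under 100 and the region 65 kb downstream of Ptgs2 stands far to the right at 839.48.

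C/EBP words were more frequent in regions with higher scores, and so were some of the other words searched. Of the 27 regions 4 had one within 70 bp of the centre, against 10.6% of all regions, and 9 had one anywhere between start and end, against 36.3%. All 4 were among the 8 regions with a score of at least 100, of which 6 had a word somewhere. Of all regions from 100 upwards, 15.9% had a word within 70 bp and 44.6% somewhere. Of the 19 regions under 100, 3 had a word and 0 had it within 70 bp, against 34.2% and 9.22% of all regions under 100. In the whole list the word was likewise more frequent at higher scores. A word within 70 bp of the centre was in 9.22% of regions under 100 (95% exact binomial interval 8.75 to 9.71%). From 100 to 150 it was in 315 of 2874 regions (9.84 to 12.2%), little more than under 100. The share was 23.2% from 150 to 200 (19.1 to 27.7%) and 49.2% from 300 upwards (42.0 to 56.5%). Most of the rise thus lay from 150 upwards. Of the 27 regions 4 scored from 100 to 150, and 1 of these had a word within 70 bp. The letters in reversed order, AANNCGTT or AANNCATT, were in 6.69% and 4.15% of the lowest and highest of these classes. Between the same classes ETS words rose from 9.73% to 23.3%, RUNX words from 6.55% to 12.4% and SP1 words (CCCGCCC) from 1.35% to 12.4%, so the rise was not limited to the C/EBP word. The intervals cover counting error only.

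**Figure D4:**
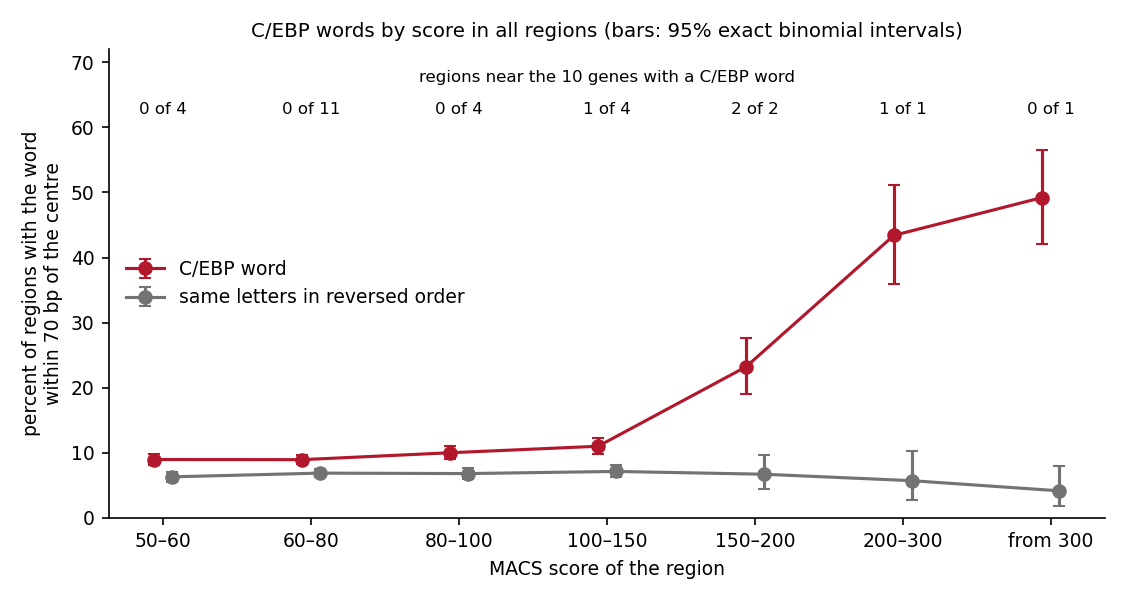
Percent of all regions with the C/EBP word, and with its letters in reversed order, within 70 bp of the centre, by class of MACS score, with 95% exact binomial intervals. The numbers along the top count the regions near the 10 genes; the word reaches 49.2% in the highest class, and the 4 member regions with it all score above 100.

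At the centres of the 27 regions ETS words were as frequent as C/EBP words. Of the 27 regions 4 had an ETS word, 3 a RUNX word and 1 an AP-1 word within 70 bp, against 10.1%, 6.77% and 3.93% of all regions. The palindrome TGACGTCA of CREB, the STAT word TTCNNNGAA, the SP1 word CCCGCCC and the NF-kB word were in none of the 27, and in 0.168%, 3.12%, 1.58% and 0.123% of all regions. C/EBP and RUNX words did not overlap in the regions of Ptgs2 and Tnfsf14.

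A wider list of 57 genes from the same pathways was counted by the same rules. Of these, 55 had a region within 100 kb, 16 within 10 kb, 4 within 1 kb, 25 one with a score of at least 100 and 5 one with at least 200. The shares were 96.5%, 28.1%, 7.02%, 43.9% and 8.77%, to be read against the percentages of all genes above. The genes without a region within 100 kb were Il18 and Tlr4. The wider list is not independent of the 10 genes, since some of its members, such as Il1a, Ccl5, Saa2 and Orm2, are close neighbours of theirs, and 13 of the 27 regions also lie within 100 kb of a gene of the wider list.

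**Figure D5:**
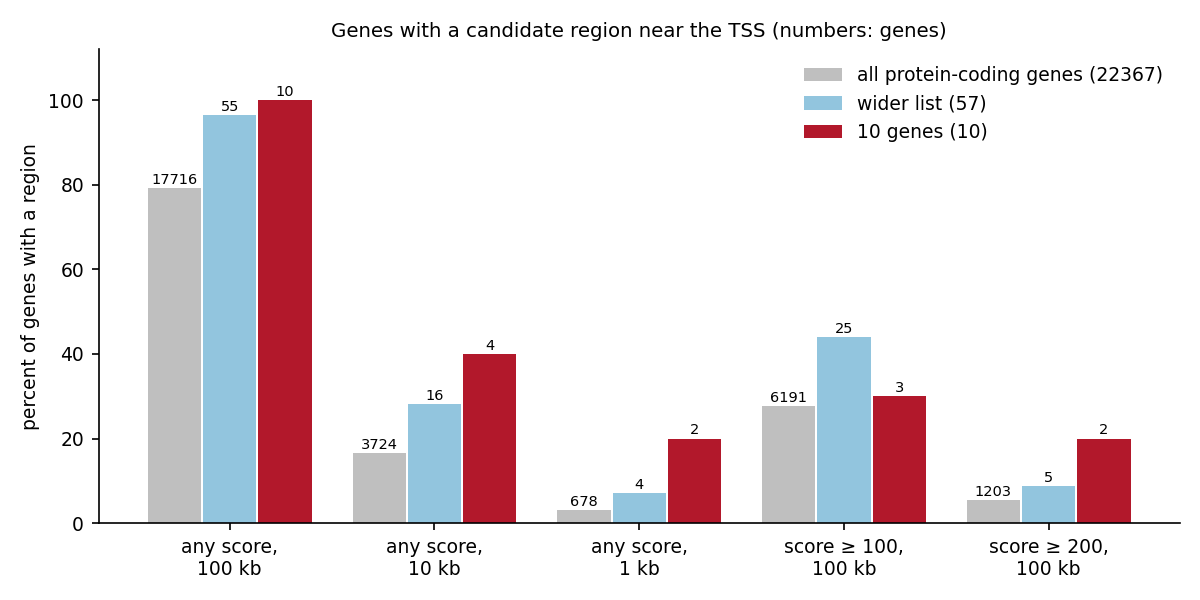
Percent of genes with a candidate region near the TSS under 5 rules of distance and score, for all protein-coding genes, the wider list of 57 and the 10 genes, with the number of genes above each bar. Of the 10 genes 4 have a region within 10 kb, against 16.6% of all genes, and 3 have one with a score of at least 100 within 100 kb, against 27.7%.

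The gene of the next enzyme after Ptgs2 had a region with a higher score at the TSS used for it. Ptges, which converts prostaglandin H2 to prostaglandin E2, had a region of 780 bp at chr2:30784985-30785764 with a score of 324.27, rank 174. It was centred 8 bp from the TSS of the longest annotated Ptges transcript, in an exon annotated as non-coding. Distances to the TSSs of other Ptges transcripts are not given here. Its word is 72 bp from the centre, in gctgtccattcTTGCACAAtcgctgtcctc, plus strand at chr2:30785436-30785465. Of the 6 further eicosanoid genes Ptges was the only one with a region within 1 kb, against 3.03% of all genes. Within 10 kb a region was found for 2 of the 6, against 16.6% of all genes. A score of at least 100 within 100 kb was reached for 3 of the 6, against 27.7%.

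Among the receptors 4 of 9 genes had a region within 10 kb, against 16.6% of all genes, and 3 of 9 one with a score of at least 200 within 100 kb, against 5.38%. Set beside their ligands they gave no single pattern. Il6 and Tnf had no region within 10 kb. The receptor genes Il6ra, Il6st, Tnfrsf1a and Tnfrsf1b each had 1, that of Il6st at 2086 bp with a score of 65.15. By contrast Il1b had 2 and the interleukin 1 receptor genes Il1r1 and Il1r2 had none, with nearest regions at 91337 and 48975 bp. At Il6ra, the ligand-binding chain of the interleukin 6 receptor, a region with a score of 261.9 (chr3:89716870-89717778) was centred 240 bp upstream, with the word in ccggctcgcggTTACGAAAgcccagtagga, plus strand at chr3:89717216-89717245. At Tnfrsf1b, TNF receptor 2, an intronic region 5748 bp downstream of the TSS (chr4:144830517-144831533) scored 526.11, rank 90. It holds catgctggctgTTACGCAAgtctgacttcc, plus strand at chr4:144831045-144831074, with the word 31 bp from the centre.

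Tnfrsf1a, TNF receptor 1, had 9 regions in its window. The one at its TSS (chr6:125299231-125300245) scored 153.16 without a C/EBP word. A higher one, 415.28, lay 61572 bp downstream (chr6:125360937-125361688), nearest to Plekhg6, and held TTGCGAAA 78 bp from its centre.

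Of the 4 feedback inhibitors of the response 2 had a region within 10 kb, Nfkbia and Zfp36, against 16.6% of all genes. For Tnfaip3 and Socs3 the nearest regions were 71917 and 10556 bp away and scored 58.56 and 67.55. Nfkbia encodes IκBα, which holds NF-kB in the cytoplasm, and had an intronic region 792 bp from the TSS (chr12:56592333-56593351) with a score of 167.08. Its word is the palindrome, 16 bp from the centre, in tggaggggggaTTGCGCAAggccggggttt, plus strand at chr12:56592847-56592876. Zfp36 encodes tristetraprolin, which promotes decay of Tnf mRNA. A region 6971 bp upstream of it (chr7:29170730-29171760), in the 3' UTR of Med29, scored 275.69 and holds TTGCACAA 33 bp from the centre.

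In the remaining groups no gene met the rules of 1 kb or of a score of 200, which few genes meet at all (3.03% and 5.38% of all genes). None of the 17 further acute-phase genes had a region within 1 kb or one with a score of at least 200, although 9 of 17 had one with at least 100 within 100 kb, against 27.7% of all genes. These 9 are not separate cases, since Orm2 and Orm3 share a region with a score of 128.49, and Fga and Fgg one with 108.06. None of the 8 further cytokine genes, the 8 chemokine genes or the 5 complement genes met the rules of 1 kb or of a score of 200 either. A region with a score of at least 100 lay within 100 kb of 3 of the 8 cytokine genes, 1 of the 8 chemokine genes and 2 of the 5 complement genes. Within 10 kb a region was found for 3 of the 17 acute-phase genes, 2 of the 8 cytokine genes, 1 of the 8 chemokine genes and 2 of the 5 complement genes, against 16.6% of all genes. These are counts over few genes from 1 library, and no difference between the groups was tested.

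The window of 100 kb decided some memberships. Just inside were the Ccl3 region at 99602 bp (score 62.69), the Ptgs2 region at 95107 bp and a Saa3 region at 92523 bp (score 70.13). Just outside were a region 103237 bp from Tnf with a score of 75.54 and one 103511 bp from Orm1 with a score of 128.49.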

How the data were processed

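C/EBPα was measured by ChIP-seq in LSK cells. The deposited file of 1 library was used, and the other 12 samples of the series were not analysed here. The authors mapped reads to mm9 with bowtie and called candidate regions with MACS against an IgG mock. Bowtie 0.12.8, bedtools 2.16.2 and MACS 1.4.2 are named in the submitters' processing notes for this library, and the study's methods give a different bowtie version. The score in the deposited list is the authors' value and was used only to describe and rank regions. The sources used here do not say if reads of several libraries were pooled before calling.

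Distances run from region centres to the TSS of the transcript with the longest genomic span, in the GENCODE annotation of NCBIM37, the assembly of mm9. Sequence was read from that genome, and words were counted on both strands. The members and lists were chosen with earlier results of these data known. All 10 genes are named; a region is described fully if it is the highest of its gene, within 10 kb, or scores at least 100. Genes of the wider list are described if a region scores at least 200 within 100 kb or lies within 1 kb. Il1a, Ccl5, Saa2, Orm2, Orm3, Fga and Fgg are named only as neighbours or because they share a region. Il18, Tlr4, Il1r1, Il1r2, Il6st, Tnfaip3 and Socs3, the transcripts Gm17311 and Gm14047, the ranks among distal and TSS-near regions and the counts of adjacent RUNX words were added once these values had been looked at. The searches were tested on simulated data. Alternatives were other score minimums, windows, TSSs, distances and words. Python 3.11.15, numpy 2.4.6, pandas 2.3.3, scipy 1.17.1, pysam 0.24.0, numba 0.67.0, matplotlib 3.10.9 and samtools 1.23.1 were used.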

Additional observations from a re-analysis of the deposited data

How the results depend on the processing

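The score minimum mattered most for the counts of regions and genes. With a score of at least 100, 8 of the 27 regions remained, 3 of 10 genes and 25 genes of the wider list, in place of 55, had a region within 100 kb, and so did 27.7% of all genes in place of 79.2%. With at least 200 the numbers were 2 regions, 2 genes, 5 genes of the wider list and 5.38% of all genes, and 0 of the 4 genes kept a region within 10 kb. A window of 50 kb gave 15 regions, 7 of the 10 genes with a region and 57.7% of all genes. A window of 200 kb gave 47 regions and 92.5% of all genes. Counting only regions nearest to the listed gene left 11 regions and 5 genes. With the TSS of any transcript the share of all genes was 80.7%, and the counts for the 10 genes did not move.

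A C/EBP word was near the centre of 4 regions in the main count. TTGCGCAA alone was in 1, the letters in reversed order in 1, the word within 150 bp in 8 and anywhere in the region in 9. In all, 18 values changed by less than 1.5 times or stayed within their interval, among them the count of the 10 genes at 50 kb. Measuring from region edges changed no count of the 10 genes. No paired analysis was possible because 1 library was used.

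Limits are a deposited list without read numbers, the single library, the unsettled genotype and the candidate stage of the list. The centre of a region stands in for its summit, so a word outside 70 bp can still lie under the summit.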

Other observations

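RUNX and C/EBP words stood 1 base apart in the regions at Ptgs2 and Tnfsf14, which prompted a count over the whole list after these were seen. Of the 17899 regions 149 had both words within 70 bp of the centre, which is 7.88% of those with a C/EBP word, where RUNX words were in 6.77% of all regions. In 7 regions the words had exactly 1 base between them, and 2 of these 7 are the regions at Ptgs2 and Tnfsf14. No test was made.

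Il18, a cytokine of the interleukin 1 family, had no region within 100 kb, but its nearest one, at 123370 bp, scored 251.76. For Tlr4, the receptor for bacterial lipopolysaccharide, the nearest region was 216422 bp away and scored 67.74.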
